A study of Mus musculus with 23 samples.

Results

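Interferon response genes are the genes that cells switch on when they sense interferon, and 40 of them, fixed as a list of gene symbols, were followed here in mouse medulloblastoma. For 38 of the 40 the arrays carried a probe set annotated to that gene alone, and all 38 passed the filter on low signal, among 14980 genes tested. The probe set of Isg15 is shared with another gene symbol and was not used, and Ifi44 was not analysed here. Of the 38, 17 exceeded the 40th percentile of signal on all 23 arrays, and the member that passed on the fewest arrays did so on 8; all 38 also passed with the 48 h arrays set aside.

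The donor mice were Ptch+/-HIC+/-, heterozygous for Ptch, the receptor that holds back Hedgehog signalling, and for HIC. Their medulloblastoma cells were grown under the skin of the flank of nu/nu nude mice, which lack mature T cells, and every group shares this genotype and host. NVP-LDE225, an inhibitor of the Hedgehog signal transducer Smoothened, was given at 40 mg/kg, with 3 arrays each at 4 h, 8 h, 24 h and 48 h. Tumours labelled resistant had received 160 mg/kg (3 arrays) or 40 mg/kg (3 arrays). The controls were 3 vehicle arrays with no stated time and 2 arrays of vehicle at 4 h. A second label calls 6 of the 12 arrays at 4 h to 48 h resistant, against the description of dose and time, and the description was followed. The labels used give no animal ages. They also do not say whether each array of a group came from its own animal, and the p-values therefore cover only the variation among these arrays, which may be technical.

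The labelled tissue was checked against its markers. Atoh1, the transcription factor of granule neuron progenitors, had signals between 3784 and 4705 in the 3 vehicle tumours, and Zic1 averaged 4389. Gli1, a direct Hedgehog target, averaged 12.3 in 48 h tumours and 678.8 in vehicle tumours. Host and tumour are both mouse, so their RNA cannot be told apart on the arrays, and fewer cells of a type and less RNA per cell cannot be told apart either. Arrays of 1 group correlated at 0.945 to 0.978, and no pair shared more than 0.616% identical values.

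Interferons bind paired receptors on the cell surface, which activate Janus kinases. Type I interferon leads to a complex with STAT2 and IRF9 that binds the interferon-stimulated response element (ISRE) in gene promoters, and interferon gamma acts through the gamma-activated site (GAS). The products of the responding genes sense foreign nucleic acid, block steps of viral replication, disrupt the vacuoles of intracellular pathogens, and either amplify the response, as IRF7 does, or restrain it, as USP18 does. In tumours the same genes are expressed by malignant cells and by macrophages and other stromal cells.

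The proximal promoters of 5 members are shown: Trim30a, Ifit3, Oas1a and Bst2 were highest at 48 h of treatment and Igtp at 24 h. All 5 come from the 12 members whose promoters held the ISRE core, and they do not stand for the other members. The promoters of Ifi35, Lgals3bp and Ifitm3, called higher at 24 h and 48 h, held no such match. Each line holds the 160 bases before the annotated transcription start in RefSeq, build GRCm38.p6, read 5′ to 3′ on the strand of the gene. Capitals mark matches to the ISRE core on either strand, searched as GAAA, any 2 bases, then GAAA.
Trim30a, chr7:104465194-104465353, minus strand: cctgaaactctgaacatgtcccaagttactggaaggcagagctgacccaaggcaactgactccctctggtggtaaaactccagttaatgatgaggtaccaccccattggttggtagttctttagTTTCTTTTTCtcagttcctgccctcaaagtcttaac
Ifit3, chr19:34583369-34583528, plus strand: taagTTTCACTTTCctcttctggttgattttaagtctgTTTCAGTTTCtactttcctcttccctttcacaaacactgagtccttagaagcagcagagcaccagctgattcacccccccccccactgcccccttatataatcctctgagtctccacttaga
Oas1a, chr5:120907526-120907685, minus strand: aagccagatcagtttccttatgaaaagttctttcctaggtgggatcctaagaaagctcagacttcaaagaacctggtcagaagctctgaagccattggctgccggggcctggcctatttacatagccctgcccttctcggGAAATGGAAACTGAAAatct
Bst2, chr8:71537473-71537632, minus strand: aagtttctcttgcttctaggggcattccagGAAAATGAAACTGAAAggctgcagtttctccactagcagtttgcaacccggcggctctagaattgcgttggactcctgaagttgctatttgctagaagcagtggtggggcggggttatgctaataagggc
Igtp, chr11:58199396-58199555, plus strand: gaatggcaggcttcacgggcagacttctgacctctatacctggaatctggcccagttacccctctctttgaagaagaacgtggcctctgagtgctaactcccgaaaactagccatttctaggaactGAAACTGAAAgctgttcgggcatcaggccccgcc

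In Oas1a and Bst2 the capitals hold 2 overlapping matches, in Ifit3 there are 2 separate ones, and the match in Oas1a ends 5 bases before the start. Trim30a has 2 promoter entries, and the one printed holds the match. Over the 250 bases before each start, 12 of 35 promoter entries of the listed genes (34.3%) held the ISRE core, against 978 of 32851 promoters in the table (2.98%). The 12 genes were Bst2, Gbp2, Gbp3, Ifit1, Ifit3, Igtp, Irgm1, Isg15, Oas1a, Rsad2, Stat2 and Trim30a, out of 30 members with an entry. The GAS letters TTCNNNGAA, which read the same on both strands and may overlap an ISRE match, occurred in the promoters of 6 members: Bst2, Eif2ak2, Ifit2, Igtp, Irf1 and Oas1a. They occurred in 7.02% of all promoters. A match of letters describes the sequence and is not evidence of binding.

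At 4 h of NVP-LDE225 none of the 38 genes passed the test against 4 h vehicle, where 0.347% of all genes did, 0.0868% higher and 0.260% lower (limma, adjusted p under 0.05, "called" below). At an unadjusted p under 0.05 there were 4 of the 38 members, 3 higher and 1 lower, and 1093 of all 14980 genes. The lowest adjusted p among members was 0.36. The median log2 difference of the members was 0.04, and that of all genes 0.01. All log2 differences are of signal plus 16, which understates changes of dim genes. The regulators Irf1, Irf7, Irf9 and Stat2 differed by between -0.16 and 0.21, and the receptor and kinase genes Ifnar1, Ifnar2, Ifngr1, Ifngr2, Jak1, Jak2 and Tyk2 by between -0.08 and 0.45, none of them called. Outside the members, 1 other interferon-induced gene was called, Ly6e, which encodes a surface protein, at 0.65 (adjusted p = 0.01).

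At 8 h 1 member was called, Oas1a, an oligoadenylate synthetase that makes the activator of the RNA-degrading enzyme RNase L. Its signals were 63, 71.6 and 68.3 in 8 h tumours, against 7.9 and 10.9 in 4 h vehicle tumours. All 8 h arrays were above both controls. The log2 difference was 1.72 (SE 0.43, adjusted p = 0.023). The 3 vehicle arrays with no stated time, however, read 12.7, 56.2 and 69.2, and 2 of the 3 arrays at 8 h lie within that range. Against all 5 vehicle arrays the Oas1a call was lost, as it was on leaving out any 1 of the 5 arrays compared (highest adjusted p 0.18). The 1 call among 38 members (2.63%) stood beside 4.60% of all genes called at 8 h, 2.12% higher and 2.48% lower, and the members' median was 0.31, with 0.04 over all genes. At an unadjusted p under 0.05 there were 9 of the 38 members, 7 higher and 2 lower, and 2538 of all 14980 genes. Stat2 differed by 0.54, Irf1 by 0.31, Irf9 by 0.22 and Irf7 by -0.16, and the 7 receptor and kinase genes by between -0.09 and 0.66, none called. Of the pathway genes that are not members, Ly6e (0.95), Sting1 (0.94) and Ifi203 (0.68) were called higher.

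At 24 h members were called in both directions, as were genes at large. Of the 38, 12 were higher and 4 lower than in vehicle tumours (42.1% in either direction). Over all genes 19.7% were called higher and 14.4% lower (34.1% in either direction), so lower calls were a smaller share of the members than of all genes. The median log2 difference was 0.58, against 0.10 over all genes. All 4 transcription factors were called higher, the RNA sensors were called in both directions, and of 14 antiviral effectors 2 were called higher and 3 lower. Of the 16 calls 6 were kept in every setting and on leaving out each array: Ifi35, Ifih1, Ifitm3, Igtp, Irf9 and Parp9.

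Irf7, the factor that amplifies interferon production, had signals of 65.4, 76.8 and 129.5 at 24 h and 23.8, 68.3 and 21.1 in vehicle tumours. The highest vehicle array lay above the lowest 24 h array. Its log2 difference was 1.05 (SE 0.32, adjusted p = 0.016). Stat2, a DNA-bound partner in the type I complex, read 81.4, 79.2 and 51.9 at 24 h and 46.3, 35.5 and 23.2 in vehicle tumours, a difference of 0.77 (SE 0.25, adjusted p = 0.023). Irf9, the DNA-binding subunit of that complex, differed by 0.78 and Irf1, which also answers interferon gamma, by 0.59 (adjusted p = 0.0049 and 0.0083). For Stat2, Irf9 and Irf1 the groups did not overlap. The Irf7 and Stat2 calls were each lost on leaving out 3 of the 6 arrays (highest adjusted p 0.10 and 0.12), and the Irf1 call without vehicle replicate 1 (adjusted p = 0.057). Against the 4 h vehicle arrays the adjusted p was 0.12 for Irf7 and 0.086 for Irf1.

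Ifi35, which encodes an interferon-induced leucine zipper protein, was the member with the smallest adjusted p at 24 h. Its signals were 446, 548 and 584 at 24 h and 165, 222 and 161 in vehicle tumours, a log2 difference of 1.45 (SE 0.18, adjusted p = 7.4e-07). Igtp, a GTPase that acts on the membranes around intracellular pathogens, read 406, 372 and 556 at 24 h and 126, 132 and 120.5 in vehicle tumours (log2 difference 1.68, SE 0.22, adjusted p = 2.6e-06). The groups were far apart for both genes.

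Ifitm3, whose membrane protein hinders virus entry, had signals of 1534, 1215 and 1645 at 24 h and 291, 535 and 439 in vehicle tumours. The difference was 1.79 (SE 0.32, adjusted p = 0.00013). Parp9, a catalytically weak ADP-ribosyltransferase relative that pairs with the ubiquitin ligase Dtx3l, read 205, 229.8 and 225 at 24 h and 115, 130.3 and 111 in vehicle tumours, a difference of 0.81 (SE 0.19, adjusted p = 0.0018). No 24 h array of either gene fell within the vehicle range. Dhx58, Ddx58, Oas1a and Lgals3bp were the remaining members called higher, by 1.04, 0.89, 1.27 and 0.72.

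Ifih1, which encodes the double-stranded RNA sensor MDA5, was called lower, and Ddx58, which encodes the related sensor RIG-I, was called higher. Ifih1 signals were 90.5, 81.8 and 126 at 24 h and 290.2, 299 and 306 in vehicle tumours, a log2 difference of -1.47 (SE 0.24, adjusted p = 4.4e-05). Ddx58 read 111, 73.2 and 148 at 24 h and 26.4, 72.6 and 62.2 in vehicle tumours, a difference of 0.89 (adjusted p = 0.025). The 3 Ifih1 values at 24 h lay far below every vehicle value, while the lowest 24 h array of Ddx58 was just above the highest vehicle array. The Ifih1 call was kept in every setting, while that of Ddx58 was lost on leaving out 3 of the 6 arrays (highest adjusted p 0.19) and under quantile normalization (adjusted p = 0.056).

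The other members that were lower at 24 h are antiviral effectors. Ifit2, an RNA-binding protein that limits viral translation, read 33.5, 64 and 38.4 at 24 h and 69.2, 92.8 and 126 in vehicle tumours (log2 difference -0.87, SE 0.24, adjusted p = 0.0079). Cmpk2, a mitochondrial nucleotide kinase, read 33.1, 20.5 and 42.9 at 24 h and 81.7, 93 and 80.8 in vehicle tumours (-1.10, SE 0.31, adjusted p = 0.0099). The Ifit2 call was lost without vehicle replicate 3 (adjusted p = 0.061) and that of Cmpk2 without 24 h replicate 2 (adjusted p = 0.06). Rsad2, which encodes viperin, read 66.2, 62.6 and 61.6 at 24 h and 126, 126 and 199 in vehicle tumours (-1.04, SE 0.37, adjusted p = 0.039). In all 3 genes every 24 h array was below every vehicle array. The Rsad2 call was lost on leaving out any 1 of the 6 arrays (highest adjusted p 0.16), and against the 4 h vehicle arrays, which read 110.5 and 45.8, its adjusted p was 0.84. Without vehicle replicate 1 the 16 calls at 24 h became 10, of 7 higher and 3 lower.

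**Figure D1:**
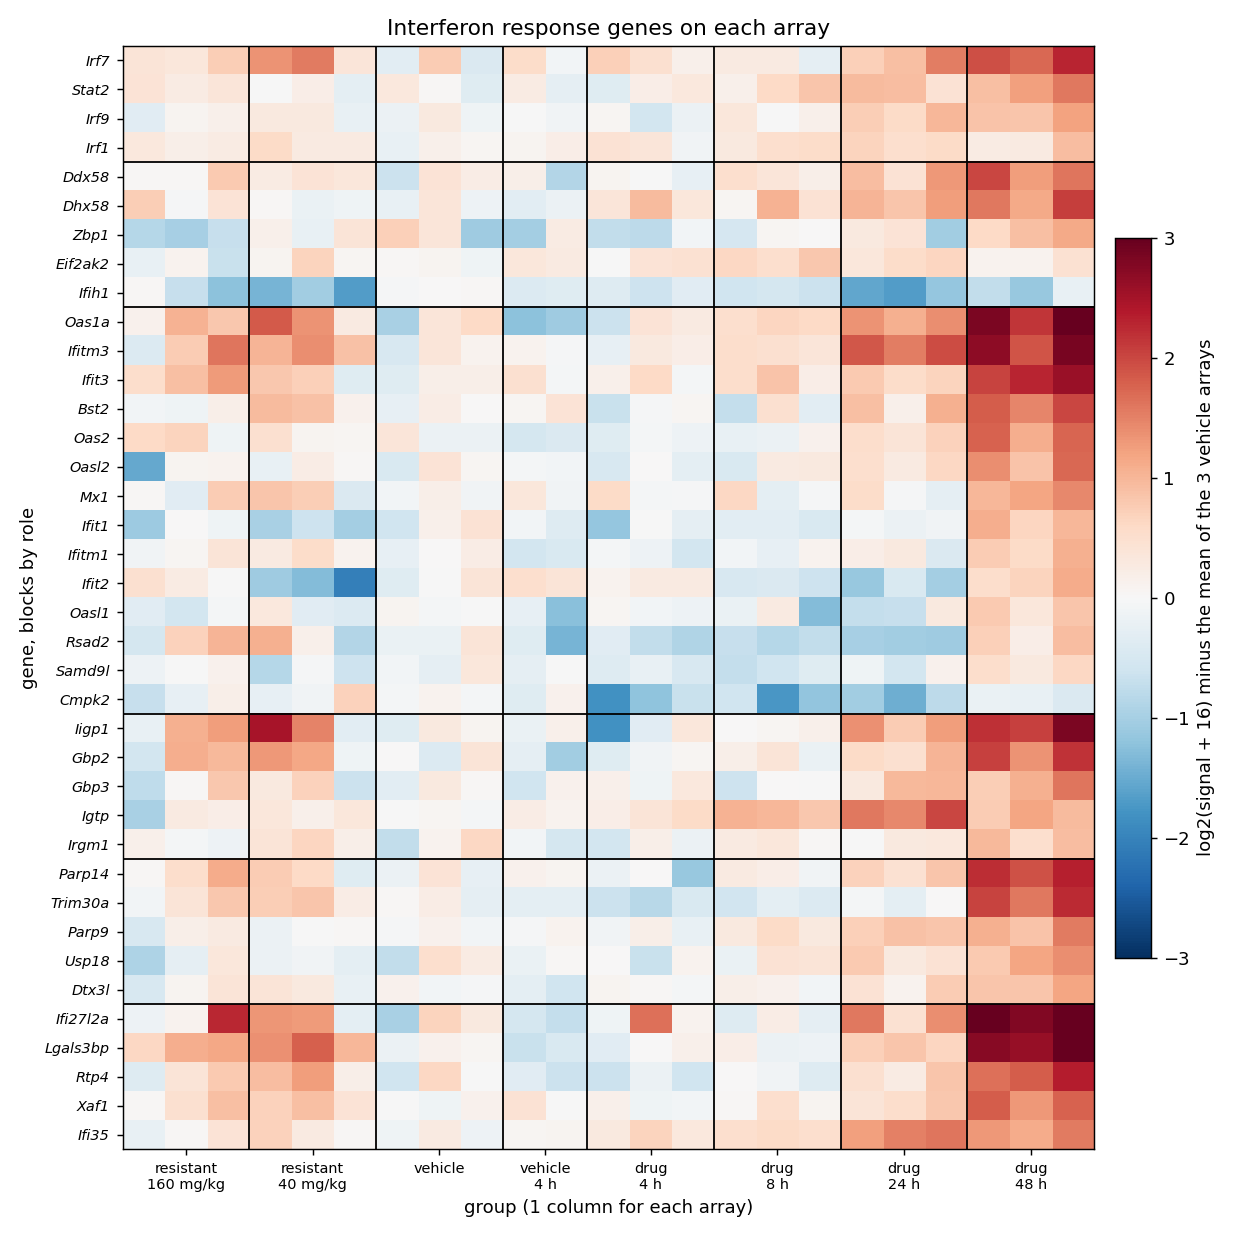
The 38 interferon response genes (rows, in blocks by role: transcription factors, sensors of nucleic acid, antiviral effectors, GTPases, feedback genes, other induced genes) on 23 arrays (columns, by group). Colour is log2 of signal plus 16 minus the mean of the 3 vehicle arrays, with the scale ending at 3 in either direction; the 48 h columns are red for 31 genes called higher, while Ifih1 is blue at 24 h.

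At 48 h the response was broad. Of the 38 members 31 were higher than in vehicle tumours and 1, Ifih1, was lower, where 25.1% of all genes were called higher and 21.3% lower (46.4% in either direction). Over single probe sets 41 of the members' 57 were higher and 1 was lower, where 38.3% of all tested probe sets were called. The median log2 difference was 1.22, against 0.06 over all genes. In 32 members every 48 h array was above every vehicle array, and in 2 every one was below. The share of all genes separated in this way was not counted. By role, all 4 transcription factors, all 5 GTPases, all 5 feedback genes and all 5 of the remaining induced genes rose, along with 10 of 14 antiviral effectors and 2 of 5 sensors. Of the 32 calls 24 were kept in every setting and on leaving out each array, the other 8 being Gbp3, Ifih1, Ifit1, Ifit2, Ifitm1, Irf1, Irgm1 and Usp18.

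Among the transcription factors Irf7 reached 174, 148 and 229 at 48 h, against 23.8, 68.3 and 21.1 in vehicle tumours, with no overlap. The log2 difference was 1.98 (SE 0.32, adjusted p = 2.2e-05). Stat2 differed by 1.24 (adjusted p = 0.00034) and Irf9 by 0.96 (adjusted p = 0.00045). Irf1 read 255, 259 and 415 at 48 h and 179, 237 and 221 in vehicle tumours, a difference of 0.49 (adjusted p = 0.02) that was not called against the 4 h vehicle arrays (adjusted p = 0.21), without 48 h replicate 4 or without vehicle replicate 1.

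Lgals3bp, a secreted glycoprotein that binds galectins, had the smallest adjusted p of the members. Its signals were 421, 385 and 624 at 48 h and 42.4, 55.3 and 51.9 in vehicle tumours. The log2 difference was 2.88 (SE 0.22, adjusted p = 2.1e-10), the lowest 48 h array being several times the highest vehicle array. Ifi27l2a, a small interferon-induced membrane protein, had the widest difference of the 38, 3.13 (SE 0.54, adjusted p = 4.6e-05), with 857, 634 and 999 at 48 h and 32.9, 135 and 101 in vehicle tumours. Rtp4 and Xaf1 differed by 1.95 and 1.63. Ifi35 read 472, 412 and 561 at 48 h, a range that overlapped its range at 24 h, and differed from vehicle by 1.32.

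Trim30a, a mouse ubiquitin ligase that restrains Toll-like receptor signalling, read 204, 144 and 236 at 48 h and 38.8, 46.8 and 28.7 in vehicle tumours. The difference was 1.95 (SE 0.24, adjusted p = 4.7e-07). At 24 h it had read 35.8, 27.8 and 37.7, inside or below the vehicle range (difference -0.11, adjusted p = 0.78). Parp14, an ADP-ribosyltransferase, differed by 2.15, Parp9 by 1.16, Usp18, the protease that removes ISG15 and blocks the type I receptor, by 1.12, and Dtx3l by 0.95.

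Of the antiviral effectors Ifit3, an adaptor for the RNA-binding Ifit1, read 136, 166 and 209.9 at 48 h and 12.9, 26.3 and 26.3 in vehicle tumours. Its difference was 2.31 (SE 0.29, adjusted p = 7.9e-07). Ifitm3 read 2699, 1561 and 3027 at 48 h and 291, 535 and 439 in vehicle tumours (2.47, SE 0.32, adjusted p = 9.6e-07). Oas1a rose to 380.5, 230.1 and 496 at 48 h, against 12.7, 56.2 and 69.2 in vehicle tumours (2.71, SE 0.38, adjusted p = 3.3e-06). For each of the 3 genes the lowest 48 h array lay well above the highest vehicle array. Bst2, which encodes tetherin, differed by 1.77, Oas2 by 1.53, Oasl2 by 1.33 and Mx1, a GTPase against influenza viruses, by 1.20, while Ifit1, Ifitm1 and Ifit2 differed by between 0.77 and 0.91. These 3 calls were lost without 48 h replicate 4 or without vehicle replicate 1, and that of Ifit1 also without 48 h replicate 1 (highest adjusted p 0.14 for Ifit1, 0.061 for Ifitm1 and 0.09 for Ifit2). Against the 4 h vehicle arrays the adjusted p of Ifit2 was 0.40. Mx1 averaged 10.5 in vehicle tumours and exceeded the 40th percentile on no vehicle array. Rsad2, Oasl1 and Samd9l were 0.61, 0.65 and 0.47 and Cmpk2 -0.29, none of them called.

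The pathogen-vacuole GTPases differed by 0.80 to 2.36. Iigp1 read 262, 234 and 414 at 48 h and 31.2, 57.8 and 47.5 in vehicle tumours, a difference of 2.36 (SE 0.51, adjusted p = 0.00063). Gbp2 differed by 1.86, Gbp3 by 1.14 and Irgm1 by 0.80. Igtp, at 223, 305 and 258 in 48 h tumours, differed by 0.96 and lay below its own 24 h level.

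Among the sensors Ddx58 and Dhx58, whose product LGP2 tunes the other RNA sensors, differed by 1.62 and 1.60. The vehicle mean of Dhx58 was 6.97, and it exceeded the 40th percentile on no vehicle array. Ifih1 read 172, 127 and 252 at 48 h and 290.2, 299 and 306 in vehicle tumours, a difference of -0.70 (SE 0.24, adjusted p = 0.021). Every 48 h array lay below every vehicle array. The call was lost without 48 h replicate 1 or 3 and without vehicle replicate 2 or 3 (highest adjusted p 0.15). Against the 4 h vehicle arrays, at 219.9 and 227, the adjusted p was 0.42, a setting chosen after seeing the data. Zbp1, a sensor of Z-form nucleic acid, and Eif2ak2, the kinase PKR, differed by 0.88 and 0.22 without being called.

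**Figure D2:**
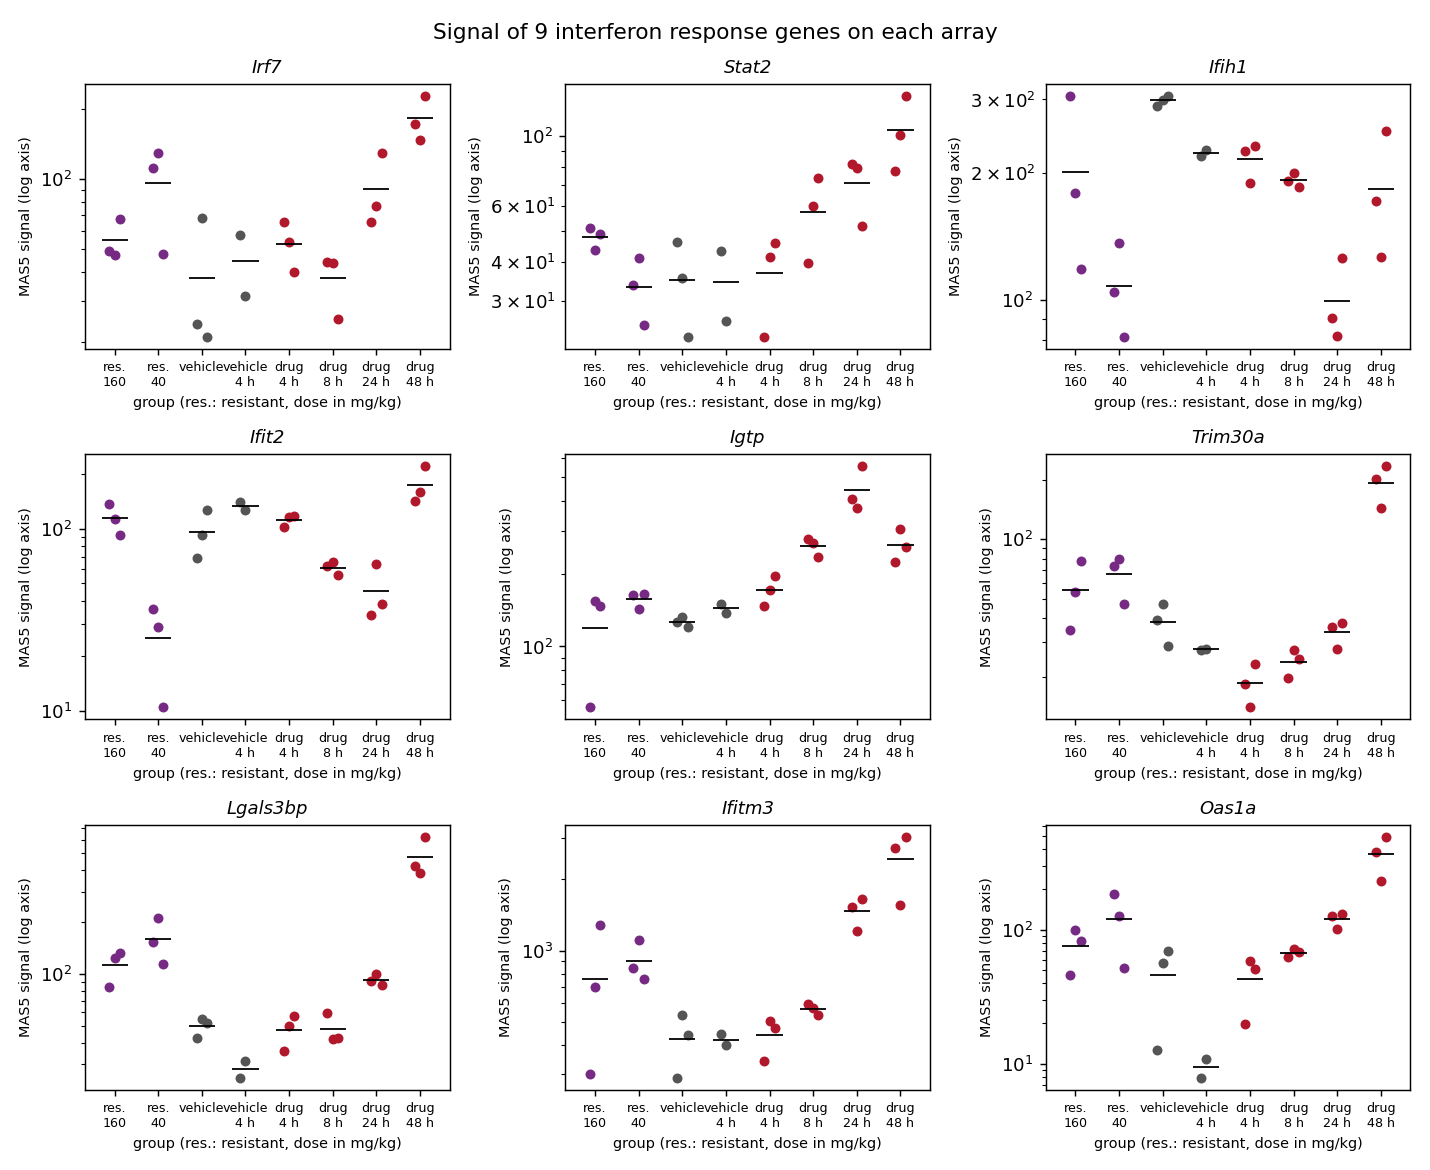
Signal (log axis) of 9 members on each of the 23 arrays by group; points are arrays and lines group means, with resistant groups in purple, controls in grey and short-term NVP-LDE225 groups in red. Trim30a and Lgals3bp are high at 48 h, Igtp is highest at 24 h (406, 372 and 556), and Ifih1 is lowest at 24 h and in resistant tumours at 40 mg/kg.

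The 48 h and 24 h tumours were also compared directly. Of the 38 members 20 were higher at 48 h and 1 was lower, where 11.9% of all genes were called higher and 13.1% lower (25.0% in either direction). The median difference was 0.90, against -0.03 over all genes. Lgals3bp (2.15), Trim30a (2.06), Ifit2 (1.64) and Ifit3 (1.64) had the smallest adjusted p-values, between 2.2e-07 and 0.00026. Ifit2 read 142, 159 and 220.0 in 48 h tumours against 33.5, 64 and 38.4 in 24 h tumours. Lgals3bp read 421, 385 and 624 in 48 h tumours, against 91, 100.3 and 86.2 in 24 h tumours, and Ifit3 read 136, 166 and 209.9 against 47.7, 38.4 and 43.4 in 24 h tumours. None of these genes overlapped between the times. Rsad2 differed by 1.65 between the times (adjusted p = 0.0024).

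By the probe set used for each gene, Igtp was the member lower at 48 h than at 24 h. Its difference was -0.72 (SE 0.22, adjusted p = 0.022), with no overlap between the times. A probe set of another member, not the one used for that gene, was also called lower. Of the transcription factors Irf7 differed by 0.93 (adjusted p = 0.041), and Stat2, Irf9 and Irf1 by 0.46, 0.18 and -0.10, not called. Single arrays weighed on this count: 10 members were called without 48 h replicate 4, 13 without 48 h replicate 1 and 12 without 24 h replicate 2. Across all 8 groups, 32 members had their highest mean at 48 h of treatment, 3 at 24 h (Ifi35, Igtp and Irf1) and 1 each at 8 h, in vehicle and in resistant tumours at 40 mg/kg.

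Markers of host cells were higher on the same arrays. Among all genes 25.1% were called higher at 48 h and 19.7% at 24 h. Of 22 macrophage and microglia markers tested, all 22 were higher at 48 h (median 3.63), and their summed signal was 42136 to 56038 at 48 h and 2728 to 4624 in vehicle tumours. Csf1r, the receptor for macrophage growth factor, read 5817, 4465 and 5803 at 48 h and 282, 556 and 601 in vehicle tumours. Cd163 and Itgam stood below the 40th percentile of every vehicle array. The summed signal of the 38 interferon response genes was 7838 to 12422 at 48 h and 2635 to 3636 in vehicle tumours, and without Ifitm3 it was 6276 to 9395 and 2344 to 3101.

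All 12 endothelial markers (median 1.39) and 11 of 12 fibroblast and matrix markers (median 2.30) were also higher at 48 h. So were 5 of 8 neutrophil, 5 of 10 lymphocyte and natural killer cell and 3 of 6 dendritic cell markers. Of those 6, Siglech, listed as a marker of plasmacytoid dendritic cells, stayed below the 40th percentile on all 48 h arrays. At 24 h, 11 of 22 macrophage markers (median 0.73; sums 5901 to 9217 at 24 h) and 10 of 12 skeletal muscle markers (median 3.16) were higher than in vehicle tumours, the muscle sums being 11706 to 16474 at 24 h and 991 to 12738 in vehicle tumours. The fibroblast and matrix sums were 18906 to 24352 at 24 h and 4610 to 9091 in vehicle tumours. The endothelial sums were 1248 to 1596 at 24 h and 624 to 1044 in vehicle tumours. Neutrophil and lymphocyte sums at 24 h overlapped the vehicle range, and skin sums were lower (152 to 188 against 319 to 403). The log2 ratio of actin signal from opposite ends of the transcript averaged 1.65 at 24 h, 0.92 at 48 h and 1.04 in vehicle tumours. The part of these cell types and of RNA quality in the interferon gene results was not tested.

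**Figure D3:**
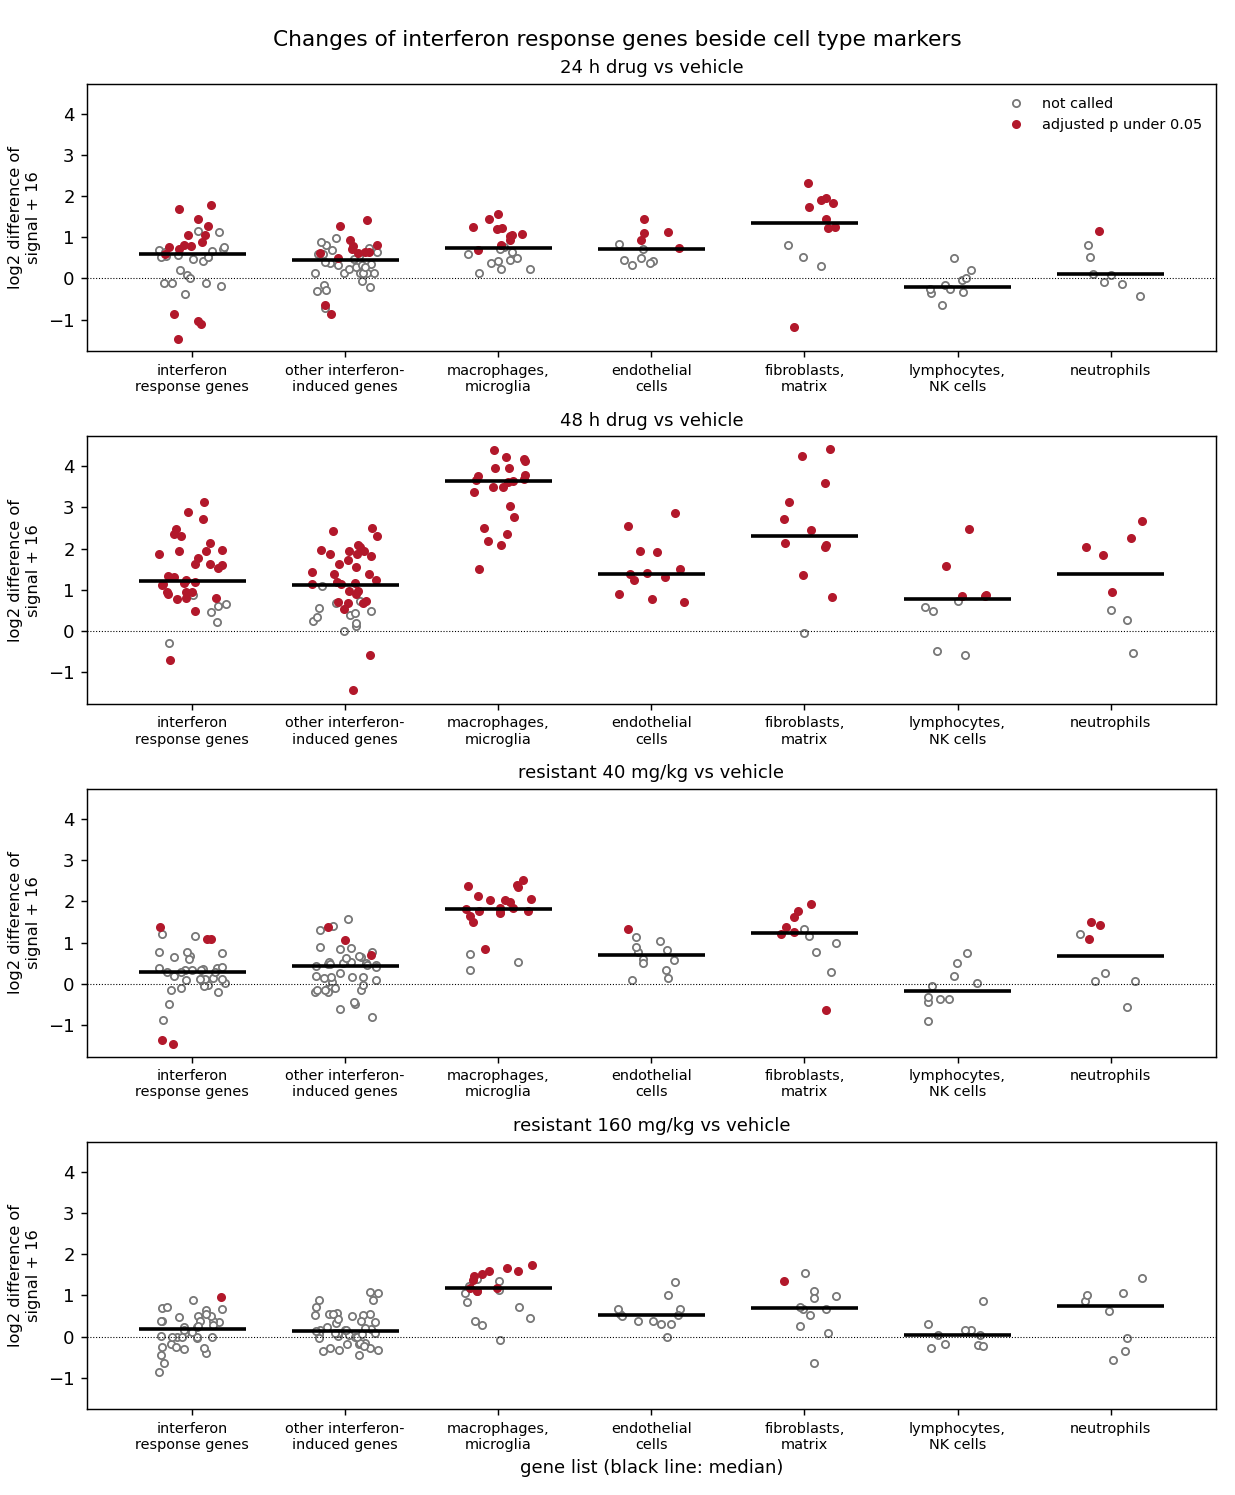
Log2 differences from vehicle (signal plus 16) of the 38 interferon response genes, 44 other interferon-induced genes and 5 marker lists at 24 h, at 48 h and in resistant tumours; each point is a gene, filled where the adjusted p was under 0.05, and black lines are medians. At 48 h the interferon response genes had a median of 1.22 and the macrophage markers 3.63.

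The upstream pathway was read from genes that are not members. Neither interferon gene on the pathway list with a tested probe set was called at 48 h: Ifnb1 read 9.9, 21.6 and 5.7 at 48 h and 3.8, 17.4 and 18 in vehicle tumours, and Ifna1 averaged 12.57 at 48 h and 15.33 in vehicle tumours, below the range of array 40th percentiles (18.7 to 28.6). At 48 h 25.1% of all genes were called higher and 21.3% lower. Of 12 interferon, receptor and Janus kinase genes 7 were higher at 48 h and none was lower. They were Il10rb (2.97), a receptor chain shared by interferon lambda and interleukin 10, both type I receptor chains Ifnar1 (0.48) and Ifnar2 (1.17), Ifngr1 (0.89), and the kinases Jak1 (0.78), Jak2 (0.82) and Tyk2 (1.05). Ifngr2, the second chain of the interferon gamma receptor, differed by -0.13 and was not called. At 24 h Jak1, Jak2 and Tyk2 were called higher, by 0.43, 0.55 and 0.72, and none of the 4 receptor chains Ifnar1, Ifnar2, Ifngr1 and Ifngr2 was.

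The inhibitor and sensing lists below stand beside 25.1% of all genes called higher at 48 h and 21.3% called lower. Of the 12 tested genes on the list of pathway inhibitors 5 were higher and 2 lower at 48 h. The 5 include Isg20, an antiviral exonuclease that does not restrain the pathway and is counted again among the other interferon-induced genes below. The 2 lower were Ptpn2, a phosphatase of Janus kinases (-1.09, adjusted p = 1.5e-08), and Socs3, which blocks Janus kinases (-1.43, adjusted p = 1.7e-06). Socs3 read 214, 239.9 and 189.6 at 48 h and 538, 602 and 679 in vehicle tumours, without overlap. Of 17 genes of the sensing route to interferon 11 were higher and 2 lower. Trim25, the ubiquitin ligase that activates RIG-I, read 648, 428 and 674 at 48 h and 30.7, 37.8 and 35.7 in vehicle tumours (3.54, SE 0.29, adjusted p = 9.4e-10). Tlr7, an endosomal receptor for single-stranded RNA, read 143, 156 and 172 at 48 h and 2.4, 7 and 6.4 in vehicle tumours (3.03, SE 0.28, adjusted p = 5.8e-09). Both genes stood far above their vehicle range.

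Cgas, the cytosolic DNA sensor, and Sting1, its signalling partner, were the 2 lower, by -1.30 and -1.07 (adjusted p = 1.1e-05 and 7.1e-06). Sting1 read 184, 154 and 158 at 48 h and 417, 333 and 342 in vehicle tumours. The shares of all genes called were 25.1% higher and 21.3% lower at 48 h, and 19.7% higher and 14.4% lower at 24 h. Of 44 other interferon-induced genes 30 were higher and 2 lower at 48 h (median 1.11), and 11 were higher and 2 lower at 24 h (median 0.44). The 2 lower ones were Pnpt1, an RNA-processing exonuclease (-0.86 at 24 h and -1.42 at 48 h), and Pml, the organiser of nuclear bodies (-0.64 at 24 h and -0.57 at 48 h).

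The pathway genes with the smallest adjusted p-values at 24 h were Ifi203, a nuclear protein of the interferon-inducible HIN domain family (1.28), Myd88, the adaptor of Toll-like receptors (1.28), and Trim25 (1.49) among those higher. Among those lower they were Ptpn2 (-0.83), Pnpt1 and Pias1 (-0.37). Between 48 h and 24 h Il10rb (2.38), Irf8, a transcription factor of the myeloid lineage (2.14), and Tlr7 (2.44) led those higher at 48 h, and Sting1 (-1.05), Socs3 (-1.17) and Pnpt1 (-0.56) those lower. Ifnar2 (1.31) and Jak1 (0.34) were also higher at 48 h than at 24 h, while Ifnar1, Ifngr1, Ifngr2, Jak2 and Tyk2 differed by between -0.56 and 0.40 and were not called.

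In resistant tumours few members were called against vehicle. At 160 mg/kg 1 of 38 was higher and none lower, where 1.19% of all genes were called higher and 0.254% lower (1.44% in either direction). The unadjusted p was under 0.05 for 4 of the 38 members and for 2423 of all 14980 genes. At 40 mg/kg 3 were higher and 2 lower, where 5.39% of all genes were called higher and 4.45% lower (9.84% in either direction). The unadjusted p was under 0.05 for 14 of the 38 members, 10 higher and 4 lower, and for 3602 of all 14980 genes. Members not called at 40 mg/kg include Oas1a, at 186, 126 and 51.5 in resistant tumours and 12.7, 56.2 and 69.2 in vehicle tumours (1.15, adjusted p = 0.071), and Iigp1, which averaged 168.6 in resistant and 45.5 in vehicle tumours (1.21, adjusted p = 0.18). The medians were 0.19 at 160 mg/kg and 0.29 at 40 mg/kg. For the mean of both doses 1 member was higher, Lgals3bp (1.17), and 1 lower, Ifih1 (-1.0), and the median was 0.21. This Ifih1 call was lost with the arrays compared alone and against the 4 h vehicle arrays (highest adjusted p 0.17). Over all genes 4.15% were called higher and 2.48% lower (6.64% in either direction). The unadjusted p was under 0.05 for 12 of the 38 members, 9 higher and 3 lower, and for 3316 of all 14980 genes. These comparisons and those at 24 h and 48 h share the 3 vehicle arrays.

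Lgals3bp was the member called at both doses. It read 84.5, 124 and 132 in resistant tumours at 160 mg/kg, 154, 212 and 115 in resistant tumours at 40 mg/kg, and 42.4, 55.3 and 51.9 in vehicle tumours, with no overlap. The difference from vehicle was 0.96 at 160 mg/kg (SE 0.22, adjusted p = 0.03) and 1.39 at 40 mg/kg (SE 0.22, adjusted p = 0.00029). The call at 160 mg/kg was lost on leaving out 5 of the 6 arrays one at a time (highest adjusted p 0.20), while that at 40 mg/kg was kept in each case.

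At 40 mg/kg Ifitm3 read 843, 1109 and 761 in resistant tumours and 291, 535 and 439 in vehicle tumours (1.10, SE 0.32, adjusted p = 0.037), without overlap. Irf7 read 111, 129.9 and 47.9 in resistant tumours and 23.8, 68.3 and 21.1 in vehicle tumours (1.08, SE 0.32, adjusted p = 0.04), and its lowest resistant array was inside the vehicle range. Either call was lost on leaving out 4 of the 6 arrays (highest adjusted p 0.19 and 0.18). Stat2, Irf9 and Irf1 differed by -0.03, 0.12 and 0.37, and at 160 mg/kg the 4 factors differed by between -0.04 and 0.49, none called. Of the receptor and kinase genes Jak1 was higher at 40 mg/kg (0.42, adjusted p = 0.017). The other 6 differed by between 0.09 and 0.47 at 40 mg/kg, and all 7 by between -0.20 and 0.30 at 160 mg/kg, none called.

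Ifih1 was lower in resistant tumours at 40 mg/kg, at 104, 136 and 81.7, against 290.2, 299 and 306 in vehicle tumours (-1.37, SE 0.24, adjusted p = 0.00079). At 160 mg/kg its arrays spread over 306, 180.0 and 118, from the vehicle level down to the level at 40 mg/kg (-0.63, adjusted p = 0.23). Ifit2 read 36.2, 28.7 and 10.5 in resistant tumours at 40 mg/kg and 69.2, 92.8 and 126 in vehicle tumours (-1.47, SE 0.24, adjusted p = 0.00047). Both were low on all 3 arrays at 40 mg/kg.

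Ifit2 was the 1 member that differed between the resistant groups, where 2.80% of all genes were called, 1.68% higher and 1.12% lower. It read 137, 113 and 92.6 at 160 mg/kg and 36.2, 28.7 and 10.5 at 40 mg/kg, a difference of 1.70 (SE 0.24, adjusted p = 0.00021) with no overlap. With the spread estimated from these 6 arrays alone the adjusted p was 0.12. Irf1, Irf7, Irf9 and Stat2 differed between the doses by between -0.60 and 0.38, and the receptor and kinase genes by between -0.39 and 0.20, none called. The counts at 40 mg/kg and 160 mg/kg moved with single arrays: 8 members were called at 40 mg/kg without its replicate 3 and 3 without its replicate 1, and 3 were called at 160 mg/kg without its replicate 1.

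Set against 48 h of treatment, 33 of 38 members were lower in the resistant tumours, taken as the mean of both doses, and none was higher. Over all genes 23% were called lower and 19.8% higher (42.7% in either direction), and the medians were -1.21 for the members and -0.05 for all genes. In 30 members all 6 resistant arrays lay below all 3 arrays of 48 h, and the share of all genes that did so was not counted. Lgals3bp (-1.70), Parp9 (-1.20), Ifi35 (-1.12) and Trim30a (-1.46) had the smallest adjusted p-values, from 1.2e-07 to 4.8e-06. Trim30a read 34.8, 53.8 and 77.5 in resistant tumours at 160 mg/kg and 73.2, 80 and 47 in those at 40 mg/kg, against 204, 144 and 236 at 48 h. Parp9 read 79.7, 135 and 147 in resistant tumours at 160 mg/kg and 102, 117 and 121 in those at 40 mg/kg, against 267, 226 and 381 at 48 h. Ifi35 read 153, 187 and 245 in resistant tumours at 160 mg/kg and 302, 223 and 186 in those at 40 mg/kg, against 472, 412 and 561 at 48 h. For these genes and Lgals3bp no resistant array reached the lowest 48 h array.

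The 5 members not called in that comparison were Cmpk2, Eif2ak2, Ifih1, Irf1 and Rsad2. Rsad2 was as high in single resistant arrays as at 48 h, with 97.4, 247 and 314 in resistant tumours at 160 mg/kg and 324, 166 and 72.9 in those at 40 mg/kg, against 254, 172 and 292 at 48 h. Irf7, Irf9 and Stat2 were lower than at 48 h, by -1.19, -0.92 and -1.08, and so were Ifnar1, Ifnar2, Ifngr1, Jak1, Jak2 and Tyk2, by between -0.35 and -1.18. Irf1 (-0.18) and Ifngr2 (0.33) were not called. Trim25 (-2.33) and Il10rb (-1.84) led the pathway genes lower in resistant tumours than at 48 h, and Pnpt1 (1.24), Ptpn2 (0.82) and Socs3 (1.31) those higher.

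Macrophage markers were higher than in vehicle tumours in the resistant tumours too. At 160 mg/kg 10 of 22 were higher (median 1.18) and at 40 mg/kg 19 of 22 (median 1.82), with summed signals of 4882 to 17289 in resistant tumours at 160 mg/kg, 13517 to 18200 at 40 mg/kg and 2728 to 4624 in vehicle tumours. The summed signal of the 38 interferon response genes was 2742 to 5222 at 160 mg/kg, 3229 to 4930 at 40 mg/kg and 2635 to 3636 in vehicle tumours. Against 48 h, 21 of the 22 macrophage markers were lower in the resistant tumours. Of the 44 other interferon-induced genes 3 were higher at 40 mg/kg and none was called at 160 mg/kg. Higher calls against vehicle covered 5.39% of all genes at 40 mg/kg and 1.19% at 160 mg/kg. Tlr7 was higher at both doses, by 1.39 at 160 mg/kg and 1.77 at 40 mg/kg, and so was Il10rb, by 0.96 and 1.29. Sting1 was lower at 160 mg/kg (-0.69) and Irf8 higher at 40 mg/kg (1.09). The fibroblast and matrix sums were 5814 to 24097 at 160 mg/kg, 16555 to 20773 at 40 mg/kg and 4610 to 9091 in vehicle tumours. The endothelial sums were 687 to 2320 at 160 mg/kg, 1109 to 2322 at 40 mg/kg and 624 to 1044 in vehicle tumours. Neutrophil sums also lay above the vehicle range, lymphocyte and muscle sums overlapped it, and skin sums lay below it. The part of macrophage and other host cell content in the levels of the members was not tested.

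**Figure D4:**
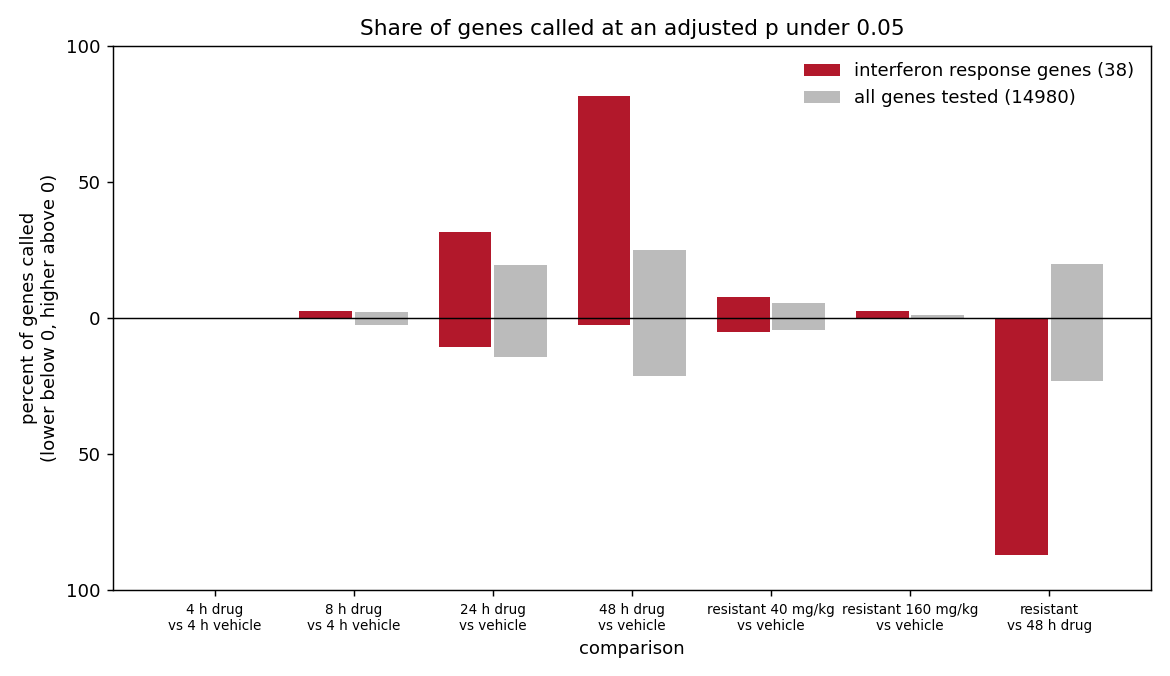
Percent of the 38 interferon response genes (red) and of all 14980 genes tested (grey) called higher (above 0) or lower (below 0) in 7 comparisons. At 48 h 31 of the 38 were called higher, where 25.1% of all genes were, and in resistant tumours against 48 h 33 were called lower, where 23% of all genes were.

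The vehicle groups were compared with each other as well. None of the 38 members was called between 4 h vehicle and vehicle with no stated time, where 0.200% of all genes were (0.0668% higher in 4 h vehicle, 0.134% lower). Without adjustment 3 of the 38 members had a p under 0.05, each lower in 4 h vehicle, as did 1311 of all 14980 genes in either direction. The median difference was -0.13. Irf1, Irf7, Irf9 and Stat2 differed by between -0.06 and 0.24, and the receptor and kinase genes by between -0.37 and 0.26, none called. Ly6e, called higher at 4 h and 8 h of treatment against the 4 h vehicle arrays, was itself lower in 4 h vehicle than in vehicle with no stated time (-0.65, adjusted p = 0.025).

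Promoter letters and the 48 h result were set side by side. Of the 11 tested members with an ISRE core within 250 bases of the start 10 were higher at 48 h, the other being Rsad2. Of the 17 tested members with a promoter entry and no such match 12 were higher and 1 was lower. Trim30a and Igtp, whose matches lie 27 and 25 bases from the start at their nearest base, had different time courses, Igtp being higher at 24 h (log2 difference from vehicle 1.68) and Trim30a not (-0.11).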

How the data were processed

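RNA of tumour allografts was hybridised to Affymetrix mouse arrays, 1 array for each of 23 samples. The deposited values are linear MAS5 signal intensity, per the submitters' processing notes, and every array has a 2% trimmed mean of 150. Detection calls and probe-level data are not used here, and the number of arrays limits the precision. Names came from the platform annotation, in which 34958 probe sets had 1 symbol, 932 several and 9211 none. Log2 of signal plus 16 was tested with limma 3.58.1 in R 4.3.3, in 1 model with a mean for each of 8 groups and eBayes with trend (15 residual and 8.46 prior degrees of freedom). Probe sets had to exceed the 40th percentile of an array on 2 or more arrays (35069 of 45101 did, with 64 control probe sets left out). Benjamini-Hochberg adjustment of the two-sided p-values ran over all of these in each of 11 comparisons, at 0.05. A gene enters by its tested probe set with the highest mean; the 38 members had 58 probe sets, of which 57 were tested.

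The members, lists and comparisons were chosen with earlier results of these data known. By rule, values on every array are given for up to 4 called members in each direction, for up to 3 called pathway genes in each direction a value, and for Irf1, Irf7, Irf9, Stat2 and the receptor and kinase genes a value in the comparisons; other named genes were chosen after their values were seen. The same-numbered arrays of different groups did not deviate together (26 pairs, r from -0.11 to 0.08). Alternatives were the offset, the filter, quantile normalization, the variance model, the control arrays, the probe set, blocks and leaving out each array. The probe set alternative took the probe set of each gene with the smallest p in the same fit. It could therefore not lose a call, and dependence on the choice of probe set was not tested by it.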

Additional observations from a re-analysis of the deposited data

Results flagged for a closer look

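Effects that differed between groups of the same contrast were listed for a closer look, each by the limma test of the difference itself. Between 48 h and 24 h of NVP-LDE225 the log2 difference was positive for 20 members: Lgals3bp 2.15, Trim30a 2.06, Ifi27l2a 1.98, Rsad2 1.65, Ifit2 1.64, Ifit3 1.64, Parp14 1.5, Oas1a 1.44, Rtp4 1.43, Gbp2 1.17, Mx1 1.12, Bst2 1.06, Xaf1 1.06, Ifit1 1.02, Oasl1 1.02, Oas2 1.00, Irf7 0.93, Ifitm1 0.78, Ifih1 0.76 and Samd9l 0.66. It was negative for 1, Igtp, at -0.72, by the probe set used for each gene. Between resistant tumours at 160 mg/kg and at 40 mg/kg it was 1.70 for Ifit2. The adjusted p-values lay between 2.2e-07 (Lgals3bp) and 0.041 (Irf7). Of the 21 calls between 48 h and 24 h, 9 were kept under every alternative and on leaving out each of the 6 arrays: Ifit2, Ifit3, Lgals3bp, Oas2, Parp14, Rsad2, Rtp4, Trim30a and Xaf1.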

How the results depend on the processing

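No call of a member changed direction under any alternative. The calls of pathway and marker genes were not put through the alternatives. The counts of members called at 24 h (16), at 48 h (32) and in resistant tumours against 48 h (33) stayed within 1.5 times under every alternative other than leaving out an array. At 8 h the count of 1 became 2 with a 60th percentile filter, 4 with the arrays compared alone and 2 with all 5 vehicle arrays (where Oas1a was not called). The count became 0 without the variance trend, and with an offset of 64 it was 1 lower and none higher. In the block by runs of neighbouring title numbers, 4 h vehicle replicate 1 was the only array of its run. That block absorbs it and leaves 1 control array at 4 h and 8 h, so no count is given. At 4 h, 0 became 1 with all 5 vehicle arrays. In resistant tumours at 160 mg/kg, 1 became 0 with an offset of 64, without the trend and with the arrays compared alone, and 2 with 4 h vehicle as control, an alternative chosen after seeing the data. At 40 mg/kg, 5 became 3 with no filter or without the trend, and 8 with all 5 vehicle arrays. For the mean of both doses against vehicle, 2 became 1 with the arrays compared alone and 6 with all 5 vehicle arrays, and between the doses 1 became 0 with the arrays compared alone. The cause was not tested. Replicate numbers do not pair the samples; with the replicate number as a block 10 members were called between 48 h and 24 h, against 21 without, and number 4 occurs on 1 array, which the block absorbs.

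Leaving out 1 array at a time gave 0 to 0 members called at 4 h, 0 to 0 at 8 h, 10 to 15 at 24 h, 26 to 32 at 48 h, 3 to 8 in resistant tumours at 40 mg/kg, 0 to 3 at 160 mg/kg, 2 to 6 for both doses against vehicle, 26 to 33 against 48 h, 1 to 2 between the doses, 10 to 22 between 48 h and 24 h, and 0 to 0 between the vehicle groups. With 24 h replicate 1 left out, whose title number lies apart from those of the arrays it is compared with, 10 members were higher and 3 lower at 24 h. Of the calls, 6 of 16 at 24 h and 24 of 32 at 48 h were kept in every setting that tested the gene. The probe set alternative, which could not lose a call, adds nothing to these counts.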
